A study of Mus musculus with 4 samples.

Results

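Genes of RNA-binding splicing regulators were followed in RNA of mouse pancreatic islets, the clusters of hormone-secreting cells in the pancreas. They were found by gene symbol, and all 10 of the 10 symbols were present among the 55536 genes counted. By their usual sites of expression 7 are of neuronal type (Srrm3, Srrm4, Rbfox1, Nova1, Nova2, Elavl4 and Ptbp2) and 3 are ubiquitous (Rbfox2, Elavl1 and Ptbp1). The islets came from male C57BL/6 mice aged 8 weeks, with no genetic change or drug named in either group. Sequencing libraries of polyadenylated RNA were made in 2 groups of 2, non-depleted and insulin-depleted. In the second group insulin sequences were removed during library preparation with the DepleteX RNA Depletion Panel (Insulin). The labels call the 2 libraries of a group biological replicates, but the names of all 4 count columns hold one and the same code pair and do not show whether different mice were used, so p-values measure only the spread between these libraries. Column names of the non-depleted libraries also carry a size-selection tag, so that size selection and insulin depletion cannot be told apart.

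Endocrine cells share much of the splicing programme of neurons. SRRM3 and SRRM4 drive the inclusion of microexons, very short exons that add a few residues to proteins of secretion and signalling. RBFOX proteins bind UGCAUG in introns and act by position, NOVA proteins bind clusters of YCAY, ELAVL proteins bind U-rich and AU-rich RNA, and PTB proteins bind CU-rich tracts and mostly repress exons. In neurons PTBP1 gives way to its paralogue PTBP2, since PTBP1 causes skipping of a Ptbp2 exon and so the decay of the transcript.

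That exon is shown with its counterpart in Ptbp1 because counts per gene add the forms that hold it to the forms that skip it. Both exons are 34 bases long and 26 of the 34 bases are identical. Capitals mark the bases that differ. The Ptbp1 exon lies at chr10:79862014-79862047 on the plus strand and the Ptbp2 exon at chr3:119724612-119724645 on the minus strand (GRCm38, GENCODE M21 transcripts).
Ptbp1: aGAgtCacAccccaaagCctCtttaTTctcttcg
Ptbp2: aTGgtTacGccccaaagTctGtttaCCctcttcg
For each gene 3 protein-coding transcripts are annotated with the exon. Of the transcripts that skip it, 2 of 2 for Ptbp1 and 2 of 3 for Ptbp2 are annotated as targets of nonsense-mediated decay. The table gives 1 value per gene, so inclusion of this exon was not measured.

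How far paralogues can be told apart in the counts depends on how alike their RNAs are, and the pair with the longest shared stretch is shown next. Coding sequences of Rbfox1 and Rbfox2 were identical at 73.0% of aligned bases, and the longest run found unchanged in both was 29 bases. These are the 60 aligned coding bases in which the pair is most alike, with the 3 differing bases in capitals.
Rbfox1: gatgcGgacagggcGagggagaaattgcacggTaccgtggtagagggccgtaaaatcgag
Rbfox2: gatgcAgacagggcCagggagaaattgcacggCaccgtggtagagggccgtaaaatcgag
The microexon regulators are less alike. Srrm3 and Srrm4 had 66.4% identity and a longest shared run of 17 bases, and their most alike 60 coding bases hold 10 differences. This stretch lies at bases 1697 to 1756 of the 1944 coding bases of Srrm3 and at 1499 to 1558 of the 1824 of Srrm4, near the 3′ end of both, and the C-terminal part of these proteins is the one known to promote microexons.
Srrm3: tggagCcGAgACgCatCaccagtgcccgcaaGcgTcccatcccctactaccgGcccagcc
Srrm4: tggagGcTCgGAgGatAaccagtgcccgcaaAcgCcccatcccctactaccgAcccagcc
For Nova1 with Nova2, Elavl1 with Elavl4 and Ptbp1 with Ptbp2, identity was 69.6%, 73.1% and 70.4%, and the longest shared runs were 16, 20 and 15 bases. No pair therefore shared a stretch of 31 bases.

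Levels are counts per 1000000 (CPM) of each library's total without Ins1 and Ins2, the 2 mouse insulin genes. These totals ran from 19278430 counts in insulin-depleted replicate 1 to 64858544 in insulin-depleted replicate 2. Where 4 values of a gene are given, they follow the order non-depleted 1, non-depleted 2, insulin-depleted 1, insulin-depleted 2. Insulin took 4.14% and 3.97% of counts in the non-depleted libraries and 0.195% and 0.264% in the insulin-depleted ones. Islet identity was plain in all 4 libraries, with 17396 to 18761 CPM of the beta-cell amylin gene Iapp and 11136 to 12812 CPM of the glucagon gene Gcg. Where genes are compared with each other, CPM was divided by the union length of annotated exons and is given as CPM per kb. A lower value in bulk RNA can mean fewer cells of a type or less RNA per cell, which cannot be told apart.

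Per length, the ubiquitous repressor gene Ptbp1 led the 10 genes with 60.3 ± 4.50 CPM per kb (SD, n = 4 libraries). Rbfox2 followed with 17.9 ± 0.234, Elavl4 with 13.5 ± 0.927, Elavl1 with 9.65 ± 0.551, Ptbp2 with 6.22 ± 0.416 and Nova2 with 3.91 ± 0.502 CPM per kb. In this order down to Nova2 each gene lay above the next in every library, and their ranges did not overlap. Srrm4 with 2.38 ± 0.550, Srrm3 with 2.30 ± 0.515 and Nova1 with 2.26 ± 0.189 CPM per kb had overlapping ranges and cannot be ranked. Rbfox1 was lowest with 0.355 ± 0.101 CPM per kb. Among the 19723 genes tested, Ptbp1 stood at percentile 96.9, Elavl4 at 80.9, Ptbp2 at 64.4, Srrm4 at 46.1, Srrm3 at 45.5 and Rbfox1 at 19.9. By this length Elavl4 lay between the ubiquitous Rbfox2 and Elavl1, and Rbfox1 lay far below the rest. The order depends on the length: with median coding transcripts Elavl4 stood below Elavl1 (ratio 0.777) and Nova2 below Nova1 (ratio 0.106). All 10 passed the filter on low counts.

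**Figure D1:**
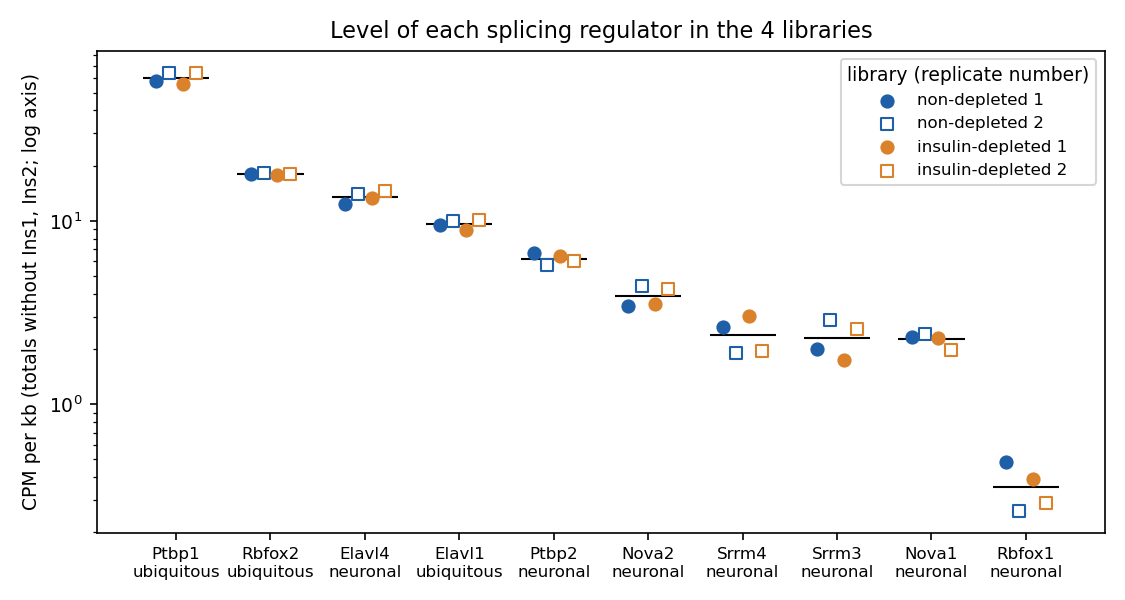
Each point is the CPM per kb of 1 gene in 1 library on a log axis, with colour for group, shape for replicate number and a black line at the mean of the 4 libraries. Ptbp1 sits near 60.3 and Rbfox1 near 0.355 CPM per kb, while the points of Srrm4, Srrm3 and Nova1 overlap.

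Ratios within a library need no scaling between libraries. Ptbp2, the neuronal PTB gene, stood to Ptbp1 as 0.116, 0.0894, 0.116 and 0.0944 per kb. Ubiquitous Ptbp1 thus outnumbered Ptbp2 by 9.76 ± 1.33 to 1 (SD, n = 4). The mean of Ptbp2 to Ptbp1 was 0.104 with union exon length and 0.172 with the median coding transcript. Both libraries numbered 1 had the higher Ptbp2 share, and the groups overlapped.

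The RBFOX family was more one-sided. Rbfox1, which neurons and muscle use, stood to Rbfox2 as 0.0269, 0.0143, 0.0220 and 0.0161. Rbfox2 was therefore 53.6 ± 15.0 times as abundant per kb (SD, n = 4). The mean ratio was 0.0242 with the longest transcript and 0.0111 with the median coding transcript, against 0.0198 with union exon length. Rbfox1 rests on 33 to 103 counts a library.

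In the ELAVL family the order of the pair depended on the length used. Elavl4, also known as HuD, stood to the ubiquitous Elavl1 (HuR) as 1.31, 1.39, 1.48 and 1.43, a mean of 1.40 ± 0.0723 (SD, n = 4). That mean uses union exon length, and it was 1.01 with the longest transcript and 0.777 with the median coding transcript. The insulin-depleted ratios both lay above the non-depleted ones, by 0.11 on the log2 scale (exact two-sided permutation p = 0.333, the smallest that 2 against 2 libraries can give).

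The other 2 pairs hold neuronal genes only. Nova2 stood to Nova1 as 1.48, 1.84, 1.52 and 2.15, a mean of 1.75 ± 0.315 (SD, n = 4). With median coding transcripts, of which that of Nova1 has only 532 bases, the mean was 0.106. Srrm4 stood to Srrm3 as 1.33, 0.661, 1.73 and 0.754. Srrm4 was thus ahead of Srrm3 in both libraries numbered 1 and behind in both numbered 2, with a mean of 1.12 ± 0.502 (SD, n = 4). Other lengths turned that mean, to 0.797 with the longest and 0.657 with the median coding transcript, and leaving out insulin-depleted replicate 1 gave 0.915. A length scales all 4 libraries by one factor, so both libraries numbered 1 had the higher ratio with every length tried, while which gene was ahead depended on the length. Over the 5 pairs the exact two-sided permutation p for insulin-depleted against non-depleted ranged from 0.333 to 1.00, and 2 against 2 libraries cannot give a p under 0.333.

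**Figure D2:**
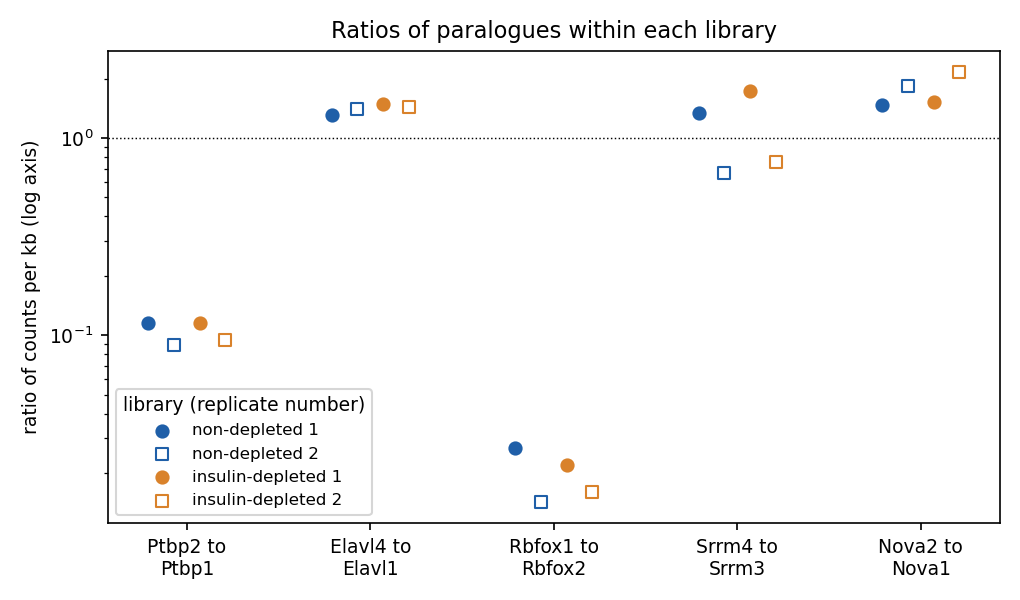
Each point is the ratio of 2 paralogues, as counts per kb of union exon length, in 1 library on a log axis, with a dotted line at a ratio of 1. Ptbp2 to Ptbp1 and Rbfox1 to Rbfox2 lie below 1 in all 4 libraries, and Srrm4 to Srrm3 lies above 1 in the libraries numbered 1 (circles) and below it in those numbered 2 (squares).

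The study compared islet libraries with and without insulin depletion, and the values of each regulator follow by role. None of the 10 changed in the edgeR quasi-likelihood test over 19723 genes, where adjusted p was 1.00 for each. In that test 0.0101% of all genes were called in either direction, namely Ins1 and Ins2. No member had an unadjusted p under 0.05 in edgeR or in DESeq2 (0 of 10 in both), against 80 and 22 of the 19711 genes other than the members, Ins1 and Ins2. Log2 fold changes, insulin-depleted over non-depleted, were above 0 for 3 members and below 0 for 7, with a median of -0.03. Over those 19711 genes 9622 lay above and 10089 below 0, with a median of -0.0024. Most signs of the members turned when 1 library was left out, which also leaves the replicate numbers unequal between groups. Within each number Srrm3 was lower and Srrm4 higher with depletion, a pattern whose share over all genes was not counted. Leaving out non-depleted replicate 2 turned the sign for Srrm3, Srrm4, Nova2, Ptbp2 and Ptbp1, and leaving out the shallow insulin-depleted replicate 1 turned it for these and Elavl1. For Rbfox1 the sign turned without non-depleted replicate 1 (0.36) or without insulin-depleted replicate 2. The signs of Nova1, Elavl4 and Rbfox2 did not turn when any one library was left out. With the replicate number as a term 0.0456% of genes were called, and again 0 of 10 members. In that fit each member had a smaller SE than on group alone, such as 0.10 for Srrm3 (log2 fold change -0.16) and 0.088 for Srrm4 (0.11). The smallest unadjusted p of a member in that edgeR fit was 0.055, for Nova1. SEs and intervals that follow are from the fit on group alone, where differences between numbers count as spread.

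Among the microexon regulators, Srrm3 (ENSMUSG00000039860, chromosome 5, 135806890 to 135874772, plus strand) encodes the form best known from endocrine cells. Srrm3 had 12.7, 18.3, 11.2 and 16.6 CPM. The libraries numbered 2 were the high ones in both groups, and the groups overlapped. Its log2 fold change was -0.15 (SE 0.25, 95% interval -0.77 to 0.46, edgeR adjusted p = 1.00). Srrm4 (ENSMUSG00000063919, chromosome 5, 116439275 to 116591817, minus strand), the neuronal regulator also called nSR100, had 23.0, 16.4, 26.2 and 16.9 CPM. Here the libraries numbered 1 were high. The log2 fold change of Srrm4 was 0.11 (SE 0.27, interval -0.56 to 0.79). For both genes the difference between replicates of a group exceeded the difference between groups.

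Of the RBFOX genes, Rbfox1 (ENSMUSG00000008658, chromosome 16, 5885355 to 7411526, plus strand) spans 1526 kb. It had 2.12 and 1.15 CPM without and 1.71 and 1.26 CPM with depletion. With counts this low its interval was the widest of the 10, from -1.19 to 0.86 around a log2 fold change of -0.17 (SE 0.41). Rbfox2 (ENSMUSG00000033565, chromosome 15, 77078990 to 77307004, minus strand), a regulator of epithelial and many other cells, was the steadiest member, with 146 and 149 CPM without and 144 and 146 CPM with depletion. Its highest library exceeded its lowest 1.03-fold. The log2 fold change of Rbfox2 was -0.03 (SE 0.07), and the interval of -0.21 to 0.15 corresponds to 0.867 to 1.11-fold.

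The NOVA genes were first known as targets of autoantibodies in paraneoplastic disease. Nova1 (ENSMUSG00000021047, chromosome 12, 46694517 to 46818929, minus strand) had 20.4 and 21.04 CPM without and 20.2 and 17.3 CPM with depletion. Both insulin-depleted libraries of Nova1 lay below both non-depleted ones, by little in replicate 1, and the log2 fold change was -0.15 (SE 0.13, interval -0.47 to 0.17, edgeR adjusted p = 1.00). Nova2 (ENSMUSG00000030411, chromosome 7, 18925888 to 18965319, plus strand) had 28.9 and 37.0 CPM without and 29.4 and 35.7 CPM with depletion. Its groups overlapped and its log2 fold change was -0.02 (SE 0.16, interval -0.41 to 0.37). Nova1 and Rbfox2 were the 2 members whose groups did not overlap, both lower with depletion. That pattern was found in 9.33% of all genes tested and its opposite, found in no member, in 10.2%, and 2 of 10 members is too few to set apart from those shares.

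Elavl4 (ENSMUSG00000028546, chromosome 4, 110203722 to 110351909, minus strand) encodes an RNA-stabilising and splicing protein of neurons and endocrine cells. Elavl4 had 66.9, 75.2, 71.3 and 78.4 CPM. Within each number the depleted library was the higher one, as for Srrm4, and the groups overlapped. For Srrm3, Nova1 and Rbfox2 the depleted library was the lower one within each number. How common either pattern is among all genes was not counted, so these directions are values with no test. The log2 fold change of Elavl4 was 0.07 (SE 0.09, interval -0.16 to 0.31). Elavl1 (ENSMUSG00000040028, chromosome 8, 4285382 to 4325413, minus strand), the ubiquitous regulator of mRNA stability, had 98.3, 104, 92.7 and 105 CPM. Its lowest and highest library were both insulin-depleted. The log2 fold change of Elavl1 was -0.03 (SE 0.09, interval -0.25 to 0.19).

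In the PTB family, Ptbp1 (ENSMUSG00000006498, chromosome 10, 79854427 to 79864771, plus strand) had 273, 304, 263 and 304 CPM. The libraries numbered 2 were higher in both groups and nearly equal to each other. Its log2 fold change was -0.03 (SE 0.10, interval -0.28 to 0.22). Ptbp2 (ENSMUSG00000028134, chromosome 3, 119718742 to 119784466, minus strand) had 61.3, 52.6, 58.9 and 55.6 CPM. The groups overlapped, and the log2 fold change of 0.0021 (SE 0.11) had an interval of -0.28 to 0.29.

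**Figure D3:**
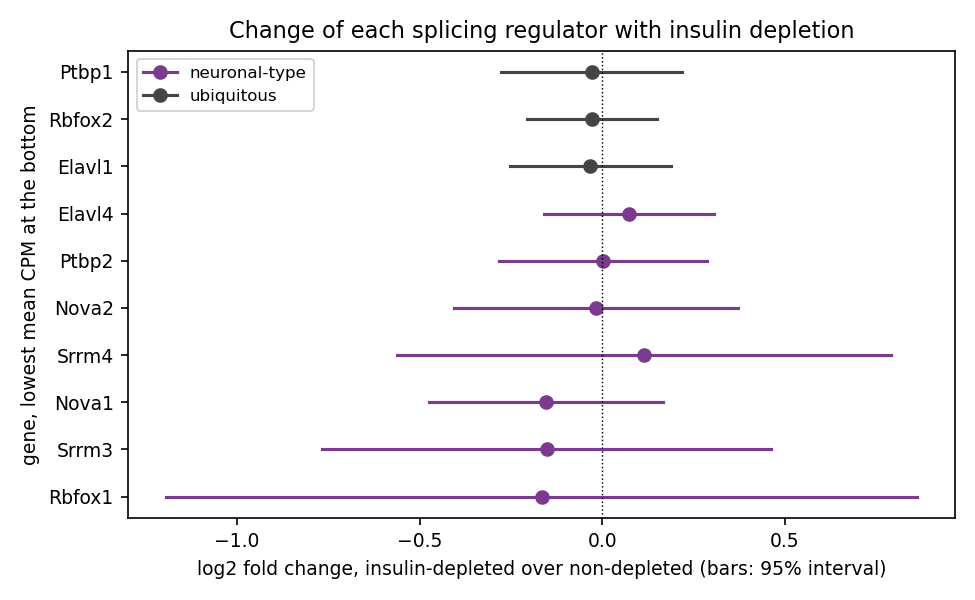
Points are log2 fold changes of the 10 genes, insulin-depleted over non-depleted, from the edgeR fit over all genes, and bars are 95% intervals. Every bar crosses 0, and bars widen from Rbfox2 (-0.21 to 0.15) to the low-count Rbfox1 (-1.19 to 0.86).

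Some members share RNA with neighbours, which matters because the sources used here do not say whether counting used strand. For Nova2, 31.7% of exon bases overlap the noncoding gene Gm26821 on the other strand, which held 0 to 6 counts a library. Ptbp1 overlaps Gm17134, E130317F20Rik and Plppr3 on the other strand over 20.7% of its exon bases, and 27.5% of its 31-base stretches occur in other genes, the processed pseudogene Gm4900 among them. E130317F20Rik had 5.91 to 7.97 CPM and Gm4900 at most 0.622 CPM, against 263 to 304 CPM of Ptbp1. For the other 8 members at most 3.54% of exon bases overlapped another gene and at most 3.29% of 31-base stretches were found in one. Values of Nova2 and Ptbp1 are therefore the more uncertain ones.

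Most members differed with the replicate number in the same direction in both groups. Srrm4, Rbfox1 and Ptbp2 were higher in number 1 in both groups (3 of 10, against 31.4% of all genes tested). Srrm3, Nova2, Elavl4, Rbfox2, Elavl1 and Ptbp1 were higher in number 2 in both (6 of 10, against 40.3%). Srrm4 was 1.40 and 1.55 times as high in number 1 as in number 2, without and with depletion. Srrm3 went the other way, 1.44 and 1.48 times as high in number 2. Among 11595 genes of at least 5 CPM the higher library exceeded the lower by a median of 1.10-fold without and 1.11-fold with depletion, and 10% of genes passed 1.32-fold and 1.35-fold. Both microexon genes were thus past the 10% mark in both groups, in opposite directions. Same-numbered libraries deviated together (r = 0.845 across 11552 genes), so the second group is no independent repeat of the first. The share of all genes past the mark in both groups was not counted. The labels give no meaning to the number beyond biological replicate, so these are values with no test.

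Cell-type markers moved with the number as well, and their part in these differences was not tested. Acinar markers, from the digestive tissue around islets, summed to 12763 and 12792 CPM in libraries numbered 1 and to 5299 and 5311 CPM in those numbered 2, with 9 of the 10 genes that passed the filter on low counts higher in number 1 in both groups and Ctrb1 and Pnlip the most abundant. Delta- and gamma-cell markers summed to 3424 and 3331 CPM in number 1 and 2761 and 2713 CPM in number 2. Within that list the pancreatic polypeptide gene Ppy was 1.43 and 1.41 times as high in number 1, while the somatostatin gene Sst was 0.792 and 0.809 times as high. Alpha-cell marker sums, mostly Gcg, were 1.13 and 1.14 times as high in number 1. Beta-cell sums were 1.07 and 1.04 times as high in number 1 but consisted mostly of Iapp. Of the 8 beta-cell markers 6 were higher in number 2 in both groups, such as the transcription factor gene Nkx6-1 with 148 and 143 CPM in number 1 and 196 and 189 CPM in number 2, and Iapp and G6pc2 were higher in number 1. Nkx6-1 was named after its values were seen. Endothelial sums were 0.900 and 0.913 times as high, with 7 of 7 genes higher in number 2. Sums of duct markers were 1.06 and 1.06 times, stellate markers 1.02 and 1.01 times, Schwann-cell markers 0.980 and 1.04 times and immune-cell markers 0.862 and 0.846 times as high in number 1. The duct sum hides opposite differences, with Spp1 1.20 and 1.17 times and Krt7 0.723 and 0.729 times as high in number 1. Of the 7 duct genes 5 were higher in number 1 in both groups and 1 in number 2, against 31.4% and 40.3% of all genes tested.

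Markers of peripheral neurons were read as well, since nerve fibres and ganglia accompany the pancreas. Of 9 such markers 6 passed the filter on low counts, of which 4 were higher in number 1 in both groups and 1 was higher in number 2, against 31.4% and 40.3% of all genes tested. Prph, a neurofilament-type protein of peripheral neurons, had 15.8 and 17.1 CPM in number 1 and 8.81 and 8.70 CPM in number 2. Slc18a3, the vesicular acetylcholine transporter, had 4.14 and 4.36 against 2.31 and 2.05 CPM. Among the neuronal-type members Srrm4, Rbfox1 and Ptbp2 were higher in number 1 in both groups, as was the ELAVL paralogue Elavl2. The neuronal-type members Srrm3, Nova2 and Elavl4 and the paralogue Rbfox3 were higher in number 2 in both groups. So was the neurofilament gene Nefm, with 31.1 and 29.9 CPM in number 1 and 37.9 and 35.8 CPM in number 2. The list summed to 49.9 to 58.5 CPM, and Slc17a6, Slc17a7 and Dbh, of glutamatergic and noradrenergic neurons, had at most 0.275 CPM. Slc18a3 and these last 3 were named after their values were seen. What share of each neuronal-type member came from neurons was not tested.

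**Figure D4:**
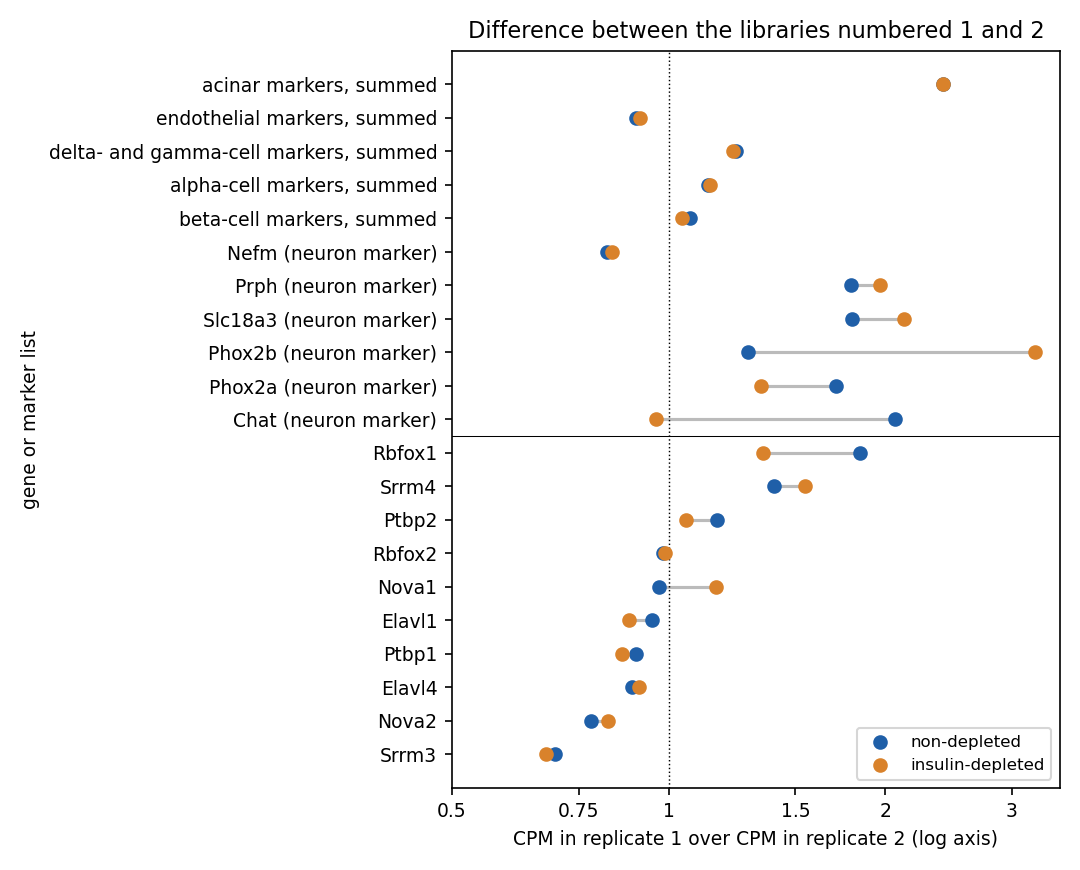
Points give CPM in replicate 1 over CPM in replicate 2 on a log axis, in blue for non-depleted and orange for insulin-depleted libraries, for the 10 regulators below the line and for neuron markers and summed marker lists above it. Srrm4 (1.40 and 1.55) and Srrm3 (0.695 and 0.677) lie on opposite sides of 1, and acinar markers lie at 2.41 in both groups.

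The remaining relatives of these genes ranged widely in level. Ptbp3, the third PTB gene and known from blood cells, had 561, 549, 582 and 560 CPM. By union exon length its mean of 75.3 CPM per kb was above the 60.3 of Ptbp1, and its 4 libraries lay between 73.4 and 77.8 CPM per kb, above the highest Ptbp1 value of 64.2. Srrm2 and Srrm1, general splicing coactivators of nuclear speckles, had 63.3 and 32.2 CPM per kb, far above Srrm3 or Srrm4. By contrast the paralogues Elavl2, Rbfox3 (NeuN) and Elavl3 had 0.653, 0.344 and 0.268 CPM per kb. Elavl2 held 6.25, 4.06, 7.003 and 4.39 CPM, so its libraries numbered 1 were high as for Srrm4. None of these 6 genes passed the edgeR test for a difference with depletion.

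A further list covers CELF, MBNL, ESRP and other regulators with tissue-biased expression. Its 23 genes had a median of 5.89 CPM per kb, between the medians of the neuronal-type (2.38) and ubiquitous (17.9) members. Mbnl2 and Msi2 were the highest with 37.2 and 36.4 CPM per kb. MBNL2 promotes adult splicing patterns, and MSI2 mainly controls translation. Their log2 fold changes with depletion were near 0 (-0.0021 and -0.01). In this list 10 genes lay above and 13 below 0.

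General factors were more abundant than most members. The 12 SR proteins, which mostly promote exon inclusion, had a median of 23.6 CPM per kb, led by Srsf5 (155) and Srsf6 (52.4). The 24 hnRNP genes, whose proteins often repress exons as PTB does, had a median of 54.5 CPM per kb, led by Hnrnpa1 (183) and Hnrnpa3 (152). The 8 factors that work with SRRM3 and SRRM4 or mark the 3′ splice site had a median of 26.3, led by Sf1 (37.4) and Sf3b1 (35.3 CPM per kb). Higher in number 1 in both groups were 10 of 12 SR genes, 15 of 24 hnRNP genes, 4 of these 8 factors and 7 of the 23 tissue-biased regulators, against 31.4% of all genes tested.

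REST is the repressor of neuronal genes outside neurons, and it is known to silence genes such as Srrm4. Rest itself had 15.3, 18.8, 16.1 and 17.5 CPM, or 2.34 CPM per kb, close to Srrm3 and Srrm4. Its libraries numbered 2 were higher in both groups. Its partner genes Kdm1a and Ehmt2, a histone demethylase and a methyltransferase, led the list of 11 with 28.3 and 27.9 CPM per kb.

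Over these 84 genes none was called by edgeR or DESeq2 (0 of 84 in both, and 0 at an unadjusted p under 0.05 in these fits), with 43 above and 41 below 0 and a median log2 fold change of 0.0068. In the fit with the replicate number as a term 0 of 84 were called and 8 had an unadjusted p under 0.05, against 851 of the 19711 genes. The 10 members, with 3 above and 7 below 0, had a median of -0.03, against 9622 above and 10089 below 0 of the 19711 genes. Widest among the 84 was Mbnl3 at 0.79 (SE 0.52), a gene of 0.155 CPM per kb that was named after its value was seen. No splicing regulator in these lists, neuronal or ubiquitous, passed the test for a change with insulin depletion.

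**Figure D5:**
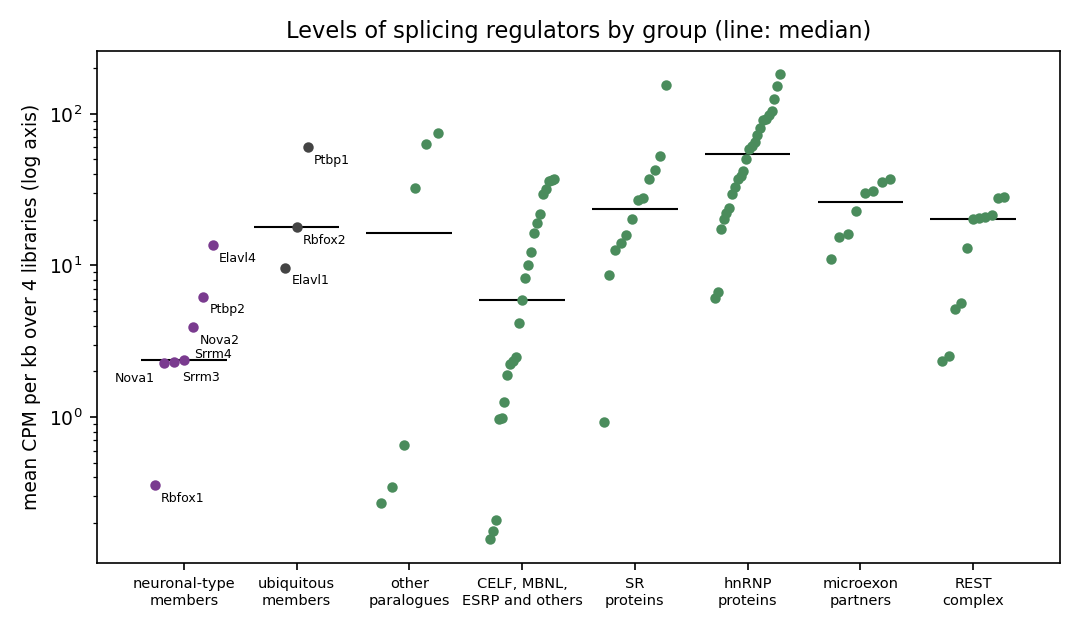
Each point is the mean CPM per kb of 1 gene over the 4 libraries on a log axis, grouped by list, with a black line at the median. The neuronal-type members have a median of 2.38 CPM per kb and range from Rbfox1 (0.355) to Elavl4 (13.5), below the medians of SR (23.6) and hnRNP (54.5) genes.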

How the data were processed

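The authors deposited raw gene counts as whole numbers for 4 islet libraries. The authors deposited the non-depleted columns under headers with a size-selection tag. These deposited values carry the unit expected counts for a formal reason only: all of them are whole, so rounding alters nothing. Cutadapt 4.8, STAR 2.7.11b and the builds GRCm38 and mm10 come from the submitters' processing notes, which assign them no role. The sources used here do not state a counting program or its use of strand. Of the gene IDs, 55536 of 55536 matched GENCODE M21 (GRCm38), which gave lengths, positions and transcript sequences.

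Counts were fitted in edgeR 4.0.16 (R 4.3.3) with filterByExpr, TMM and glmQLFit (robust) on group alone, tested with glmQLFTest and adjusted by Benjamini and Hochberg over 19723 genes, with a threshold of 0.05. The step was tested on simulated data. DESeq2 1.42.0, other scaling and lengths, no filter, a replicate term, counts divided by 2 and leaving out each library were alternatives. Of genes with 2 to 9 counts, 80.01 to 84.0% had even counts, so counting error is understated if a fragment adds 2. Genes were named by a rule: all 10 members, the 6 other paralogues, Ins1 and Ins2, any called gene, and up to 2 of the most abundant genes of each other list, with exceptions stated in the text. Members and lists were chosen with earlier results of these data known.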

Additional observations from a re-analysis of the deposited data

How the results depend on the processing

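Under the 9 alternatives none of the 10 members was called: of 90 fits 0 had an adjusted p under 0.05 (smallest 0.999). A term for the replicate number raised the genes called from 2 to 9, none of them a member, and all other alternatives gave 2. Same-numbered libraries deviated together (r = 0.845 across 11552 genes, with only 2 pairs), but the labels give no shared animal, so this block is no design. Signs of 15 fits turned. With no filter and in DESeq2 Ptbp2 had -0.0015 and -0.00052. Leaving out each library gave -0.46 to 0.12 for Srrm3, -0.24 to 0.42 for Srrm4, -0.17 to 0.16 for Nova2, -0.11 to 0.13 for Ptbp2 and -0.13 to 0.063 for Ptbp1, with the sign turned when non-depleted replicate 2 or the shallow insulin-depleted replicate 1 was left out. For Elavl1 (-0.12 to 0.044) it turned without insulin-depleted replicate 1, and for Rbfox1 (-0.55 to 0.36) when non-depleted replicate 1 or, in the other group, replicate 2 was left out. Each of these fits assumes that a lone library varies like the others. Leaving out 1 library also leaves the replicate numbers unequal between groups.

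Ratios moved with gene length by construction. With the longest and the median coding transcript they were 0.157 and 0.172 for Ptbp2 to Ptbp1, 1.01 and 0.777 for Elavl4 to Elavl1, 0.797 and 0.657 for Srrm4 to Srrm3, and 1.43 and 0.106 for Nova2 to Nova1. Rbfox1 to Rbfox2 was 0.0242 with the longest and 0.0111 with the median coding transcript. Leaving out each library gave 0.915 to 1.27 for Srrm4 to Srrm3, with the low value without insulin-depleted replicate 1. Depth limits Rbfox1 most, with 33 counts in the shallowest library.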
